A study of Mus musculus with 71 samples.

Results

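Transcripts of 31 genes of the peroxisome were examined in adipocytes of the murine lines 3T3-L1 and C3H/10T1/2 that received rosiglitazone (RSG), a ligand of the nuclear receptor PPARγ, or its vehicle dimethyl sulfoxide (DMSO). The set held 11 genes of biogenesis, the peroxins (Pex genes), and 20 genes of enzymes and carriers. Members were all probe sets of the array that were annotated to exactly 1 gene, that gene being in the set. This gave 47 of 22626 probe sets, for 29 of 12393 genes. There were 20 probe sets for 10 peroxins and 27 for 19 enzymes and carriers, and 13 genes had more than 1 probe set. Agps and Pex10 had no probe set of their own and were not analysed here.

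The 71 arrays came from cells harvested 1, 2, 4, 7, 24 or 48 hr after 1 µM RSG or DMSO was added. Each of the 24 groups held 3 biological replicates, apart from 3T3-L1 adipocytes given DMSO for 2 hr, where only replicates 2 and 3 were at hand. A sample combined 2 wells, and replicates came from separate batches of differentiation. The preadipocyte line 3T3-L1 was differentiated with insulin, 3-isobutyl-1-methylxanthine, dexamethasone and 100 nM RSG, and the mesenchymal line C3H/10T1/2 with insulin and 10 µM RSG. Thus every group, DMSO included, had met RSG before it spent 24 hr in washout medium that contained bovine serum albumin. The lines also differed in how recent this was. In 3T3-L1 RSG was given only in the first step of differentiation, and media without it followed for days before the washout. C3H/10T1/2 cells had RSG throughout differentiation, up to the washout. Line, differentiation protocol and culture run cannot be told apart. Both lines are clonal lines in culture, and the RNA came from whole wells, so that a change in the share of a cell type and a change of RNA per cell cannot be told apart.

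Peroxisomes shorten very long chain, branched and dicarboxylic fatty acids by β-oxidation, begin the synthesis of ether lipids, and destroy the hydrogen peroxide that their oxidases make. Their matrix proteins are made in the cytosol, are bound by the receptors Pex5 or Pex7, dock at Pex13 and Pex14 and cross the membrane, while Pex3, Pex16 and Pex19 place proteins in the membrane itself. Several genes of peroxisomal β-oxidation are classical targets of PPARα in rodent liver, through response elements that are direct repeats of a hexamer with a single base between them (DR1).

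The stretch from 250 bases before to 50 after the transcription start was at hand for 26 members (31 windows, RefSeq, GRCm38.p6) and was missing for Abcd2, Amacr, Hsd17b4, Pex19 and Pex2. Windows are shown for Acaa1b and Ehhadh, the enzymes with the largest and the earliest change below, for Pex16, the peroxin with the largest, and for Cat, the only member whose window held a DR1-like repeat. They lie at chr9:119157044-119157343 (minus strand) for Acaa1b, chr16:21787785-21788084 (minus strand) for Ehhadh, chr2:92374426-92374725 (plus strand, the first of 2 windows) for Pex16 and chr2:103485104-103485403 (minus strand) for Cat. Capitals mark the repeat in Cat, and no other letters are marked.
Acaa1b: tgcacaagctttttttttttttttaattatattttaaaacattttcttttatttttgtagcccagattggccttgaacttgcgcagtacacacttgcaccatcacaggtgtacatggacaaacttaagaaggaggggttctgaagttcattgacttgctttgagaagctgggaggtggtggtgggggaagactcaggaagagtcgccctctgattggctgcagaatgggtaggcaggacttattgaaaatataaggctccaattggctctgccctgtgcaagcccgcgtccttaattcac
Ehhadh: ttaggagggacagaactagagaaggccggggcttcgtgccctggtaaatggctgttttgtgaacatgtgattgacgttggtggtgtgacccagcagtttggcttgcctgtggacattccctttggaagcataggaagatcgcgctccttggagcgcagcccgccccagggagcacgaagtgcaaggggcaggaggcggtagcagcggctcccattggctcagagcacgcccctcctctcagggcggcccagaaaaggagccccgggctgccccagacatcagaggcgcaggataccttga
Pex16: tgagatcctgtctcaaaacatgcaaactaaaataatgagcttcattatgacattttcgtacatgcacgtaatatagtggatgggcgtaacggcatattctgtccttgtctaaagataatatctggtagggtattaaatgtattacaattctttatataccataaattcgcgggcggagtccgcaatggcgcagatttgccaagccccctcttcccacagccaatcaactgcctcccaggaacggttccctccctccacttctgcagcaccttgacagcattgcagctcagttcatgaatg
Cat: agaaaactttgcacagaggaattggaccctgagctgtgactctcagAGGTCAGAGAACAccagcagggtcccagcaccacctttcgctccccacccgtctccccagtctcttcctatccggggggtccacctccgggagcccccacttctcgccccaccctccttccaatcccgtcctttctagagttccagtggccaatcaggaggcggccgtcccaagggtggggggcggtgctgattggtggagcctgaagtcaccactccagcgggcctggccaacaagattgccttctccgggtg
Both strands were searched for AGGTCANAGGTCA. The Cat window held AGGTCAGAGAACA, with 2 mismatches, from base -204 to base -192 relative to the start. A repeat with at most 2 mismatches lay in 3.23% of the 31 member windows and in 3.86% of all 32851 windows. With at most 1 mismatch the shares were 0% of member windows and 0.554% of all windows. A single AGGTCA, on either strand, lay in 3 member windows (9.68%), those of Cat, Phyh and Scp2, against 16.3% of all windows. Bases G and C made up a median of 58.3% of member windows and 52.7% of all. A missing match says only that these letters are not in that window.

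Signals were MAS 5.0 intensities scaled to a common mean on every array. The median signal lay between 50.2 and 64.2 on the 35 arrays of 3T3-L1 and between 38.2 and 46.9 on the 36 arrays of C3H/10T1/2 adipocytes. All adipocyte markers were above the presence level of 19.9 on every array, and Adipoq (adiponectin) had a median of 7832 in the 3T3-L1 and 6030.15 in the C3H/10T1/2 line. Ucp1, a marker of brown adipocytes, was under the presence level on every array of both lines. Other markers on the brown list varied. Cidea and Cox7a1 were present on every array, with medians of 112.8 and 123.3 in the 3T3-L1 and 1016.8 and 565 in the C3H/10T1/2 line. Elovl3 was present on 34 arrays of each line, and Dio2 and Ppargc1a varied by probe set. Zic1 was present on 5 arrays of 3T3-L1 and 0 of C3H/10T1/2.

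A probe set was tested in a line when at least 1 of its group means reached 19.9, and was called when the adjusted p of limma was under 0.05. In each line 45 member probe sets were tested, for 28 genes in the 3T3-L1 and 29 in the C3H/10T1/2 line. The 3 gaps were a dim Pecr probe set in both lines, a dim Pex6 probe set in C3H/10T1/2, and Ehhadh in 3T3-L1 adipocytes.

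Some peroxin transcripts had risen after 7 hr of RSG in both lines. The peroxin probe sets called were 4 of 20 (4 genes) in 3T3-L1 and 7 of 19 (5 genes) in C3H/10T1/2. Most calls of enzyme transcripts came at 24 and 48 hr. Pex2, Pex6, Pex7 and Pex11a were not called for RSG at any time without the replicate block. Limma called no member of the 3T3-L1 line at 1 hr, where 0.0666% of all 18028 tested probe sets were called, and none at 2 hr, where 0.172% were. At an unadjusted p under 0.05, 1 member was higher at 1 hr, and 6 were higher and 1 lower at 2 hr. Of all 18028 probe sets, 508 were higher and 249 lower at 1 hr, and 493 higher and 278 lower at 2 hr. The test of the study's methods gave 1 higher at 1 hr, and 7 higher and 1 lower at 2 hr. Over all probe sets that test gave 509 higher and 238 lower at 1 hr, and 493 and 280 at 2 hr. At 4 hr 2 members rose and none fell, against 0.544% and 0.172% of all probe sets. At 7 hr 5 rose and none fell, against 1.22% and 0.821%. At 24 hr 15 rose and 1 fell, against 4.79% and 6.97%, and at 48 hr 17 rose and 1 fell, against 6.2% and 8.09%. The median log2 fold change of the members was 0.14 at 4 hr, 0.11 at 7 hr, 0.26 at 24 hr and 0.35 at 48 hr, while that of all tested probe sets was -0.02, -0.05, -0.01 and -0.03. The count of 2 at 4 hr was 1 without any array of that time except DMSO replicate 1, and the count of 5 at 7 hr fell to 2 when DMSO replicate 2 was left out and to 3 when RSG replicate 2 or 3 or DMSO replicate 1 or 3 was.

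In C3H/10T1/2 adipocytes no member was called at 1 hr, where 0.0434% of all 16123 tested probe sets were called. The unadjusted p was under 0.05 for 1 member, which was lower, and the test of the methods gave none. Over all tested probe sets 287 were higher and 240 lower at that unadjusted p, and the test of the methods gave 279 and 218. At 2 hr 1 member was called, against 0.229% of all. At 4 hr 4 rose and none fell, against 0.533% and 0.229%. At 7 hr 9 rose and none fell, against 1.65% and 1.2%. At 24 hr 7 rose and 1 fell, against 3.65% and 4.07%, and at 48 hr 9 rose and 1 fell, against 2.79% and 2.62%. The median log2 fold change of the members was 0.15, 0.18, 0.26 and 0.24 at 4, 7, 24 and 48 hr, and that of all tested probe sets -0.04, -0.07, -0.07 and -0.01. Replicate numbers were taken to pair the arrays of this line, which the labels do not state. With the replicate number as a block 13 members rose at 7, at 24 and at 48 hr. Among all 16123 tested probe sets 489, 864 and 736 rose with the block, and 266, 589 and 450 without it. The 5 calls of 2 and 4 hr were 1 to 3 without RSG replicate 1 or 2 or DMSO replicate 1 or 3 of 4 hr. Without RSG replicate 1 or DMSO replicate 3 the count at 24 hr was 4, and at 48 hr it was 3 without DMSO replicate 1, 4 without RSG replicate 2 or 3 or DMSO replicate 3, and 5 without RSG replicate 1.

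Most calls at 4 and 7 hr were of peroxins, while the 1 call at 2 hr, in C3H/10T1/2, was of Ehhadh, an enzyme. Peroxins and enzymes were not compared by a test. In 3T3-L1 adipocytes 2, 4, 9 and 8 of 20 peroxin probe sets rose at 4, 7, 24 and 48 hr, and the median log2 fold change was 0.31, 0.32 and 0.28 at the last 3 times. Of all tested probe sets 0.544%, 1.22%, 4.79% and 6.2% rose there. In the C3H/10T1/2 line 3, 7, 2 and 3 of 19 peroxin probe sets rose, with medians of 0.41, 0.27 and 0.27 at the last 3 times. The shares of all were 0.533%, 1.65%, 3.65% and 2.79%. Of the enzymes and carriers, 0, 1, 6 and 9 of 25 rose in the 3T3-L1 and 1, 2, 5 and 6 of 26 in the C3H/10T1/2 line at the same times, and 1 fell at 24 and at 48 hr in each line. At 48 hr RSG arrays lay wholly above DMSO arrays for 20 of 45 members in the 3T3-L1 and for 17 of 45 in the C3H/10T1/2 line, against 10.8% and 8.75% of all tested probe sets. They lay wholly below for 0 and 2 members, against 14.4% and 10.5%.

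**Figure D1:**
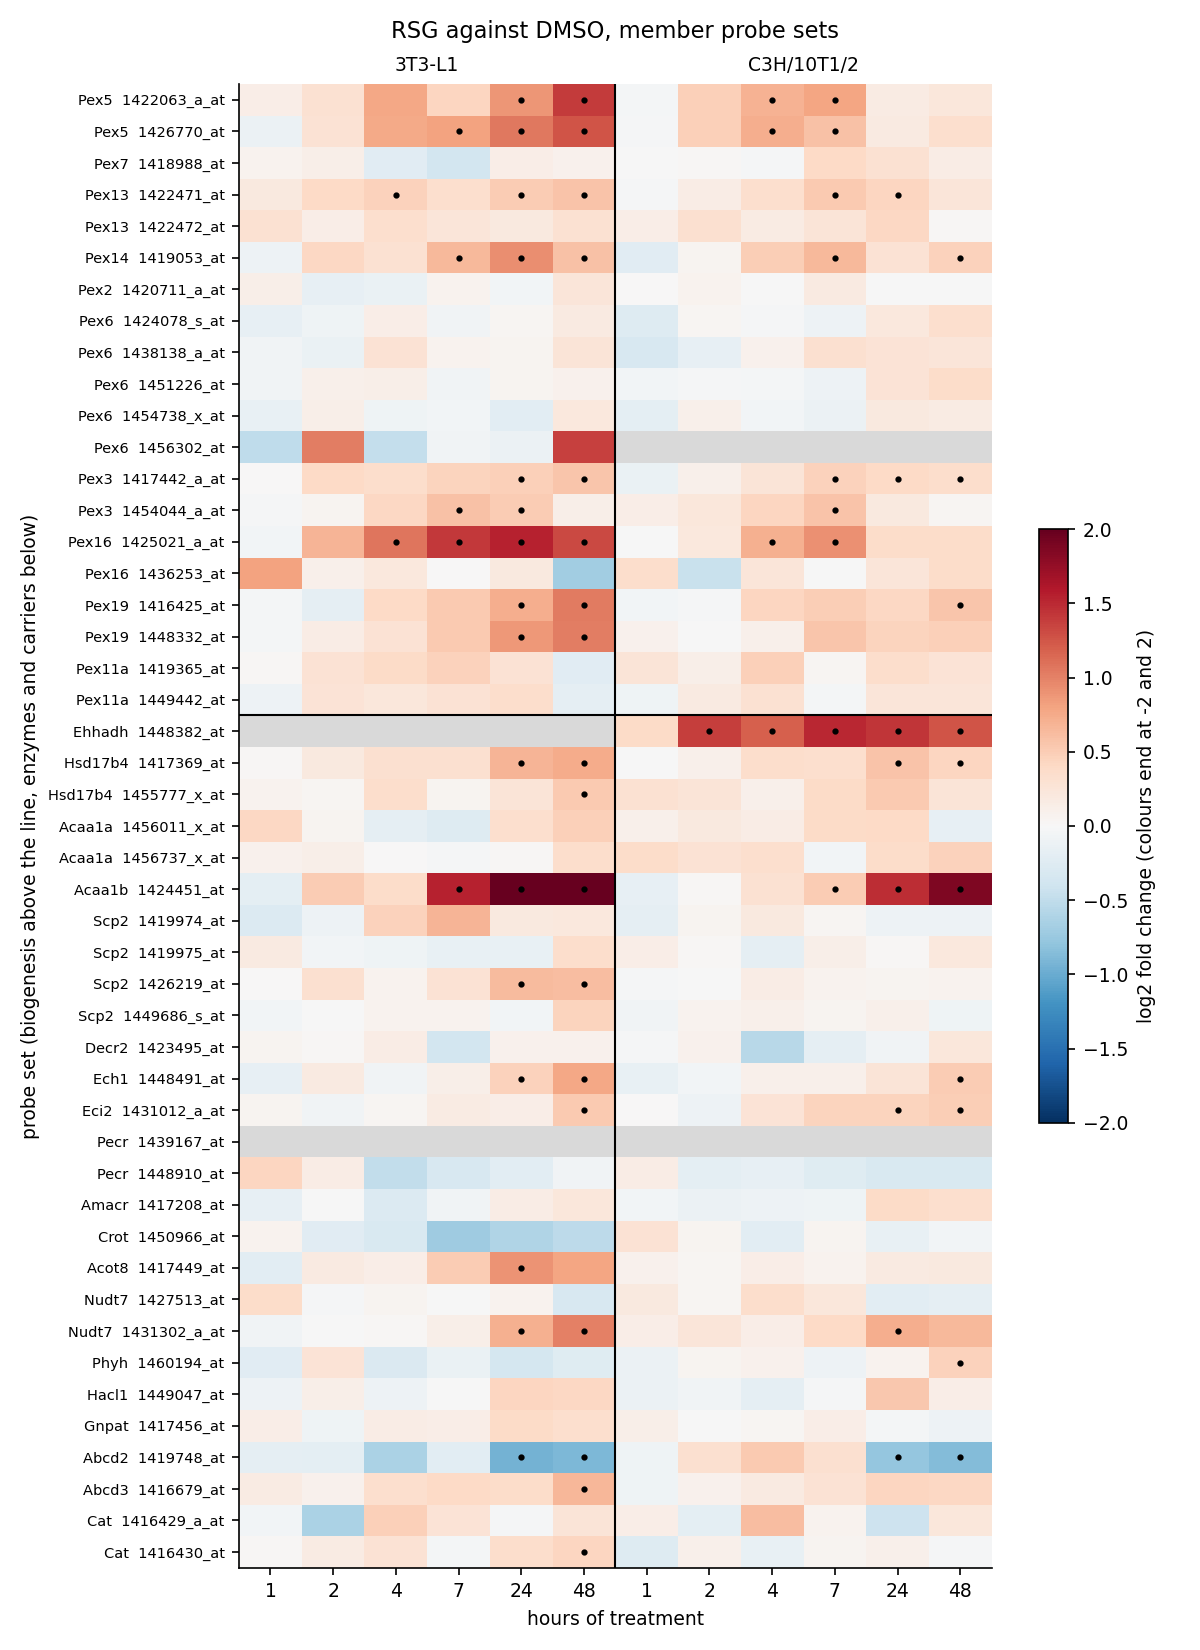
Log2 fold change of RSG against DMSO for each member probe set (rows, biogenesis above the line) at each time in hours (columns, 3T3-L1 left, C3H/10T1/2 right). Red is higher with RSG, blue lower, grey not tested, and a dot marks an adjusted p under 0.05. The dots of the 7 hr columns lie mostly on peroxins (4 of 5 in 3T3-L1, 7 of 9 in C3H/10T1/2). By gene these are 4 of 5 and 5 of 7, as Pex3 and Pex5 each have 2 dots in C3H/10T1/2. Abcd2 is the only row with dots on blue.

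Across the course 15 genes rose at 1 or more times in the 3T3-L1 and 13 in the C3H/10T1/2 line. They had 11 in common, which is 73.3% of the first list and 84.6% of the second. Among all genes 992 rose in the 3T3-L1 and 672 in the C3H/10T1/2 line, and the 447 in common were 45.1% and 66.5% of these lists. Whether members were shared more often was not tested. These were Acaa1b, Hsd17b4, Ech1, Eci2, Nudt7, Pex3, Pex5, Pex13, Pex14, Pex16 and Pex19. Scp2, Abcd3, Cat and Acot8 were called in 3T3-L1 only and Phyh and Ehhadh in C3H/10T1/2 only, but no difference between the lines was called for any of them, and Ehhadh was too dim in 3T3-L1 to be compared. These counts are without the replicate block. With it, Abcd3, Hacl1, Amacr and Pex6 were called in C3H/10T1/2 adipocytes too. In 3T3-L1 adipocytes the block added Hacl1 and Pex11a as higher and Crot as lower.

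Pex16, which helps to insert membrane proteins and to form new peroxisomes, had the largest change of any peroxin. In 3T3-L1 adipocytes the 3 RSG arrays gave 797.5, 895.1 and 850.9 at 4 hr and the DMSO arrays 537.0, 359.3 and 340.1. At 7 hr RSG gave 1043.2, 947.0 and 1332.0 and DMSO 417.7, 352.0 and 480.1. The groups lay apart at both times. They also lay apart at 2 hr, when RSG gave 668.9, 688.2 and 670.5 and the 2 DMSO arrays 402.4 and 439.6. With only 2 DMSO arrays at that time, RSG lay wholly above DMSO for 10.5% of all 18028 tested probe sets. The fold was 2.10 at 4 hr (log2 1.07 ± 0.17 SE, adjusted p = 0.000424), 2.65 at 7 hr (adjusted p = 3.38e-06), 2.90 at 24 hr (1.67e-07) and 2.49 at 48 hr (1.13e-06). At 2 hr the adjusted p was 0.270. All 4 calls held without each array in turn. At 24 hr RSG gave 1297.6, 1226.4 and 1471.7 and DMSO 549.3, 389.4 and 449.6. After 48 hr RSG gave 1581.2, 975.0 and 1213.3 and DMSO 439.5, 487.6 and 565.7. Every RSG array at both of these late times thus exceeded every DMSO array of the line.

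The gap of Pex16 opened and narrowed again in C3H/10T1/2 adipocytes. At 4 hr RSG gave 1118.1, 1119.0 and 922.9 and DMSO 654.6, 764.7 and 534.0. At 7 hr RSG gave 1243.7, 1084.9 and 1129.2 and DMSO 519.6, 649.4 and 674.3. The groups lay apart at both times, with a log2 fold change of 0.70 ± 0.15 SE at 4 hr (adjusted p = 0.0129) and 0.91 at 7 hr (0.000268, 1.88-fold). The call at 4 hr held in 3 of 6 fits without an array (highest adjusted p 0.162). At 24 hr RSG gave 1395.8, 1394.0 and 1282.7 and DMSO 1019.6, 977.3 and 1163.8. At 48 hr RSG gave 1393.1, 1684.3 and 1270.2 and DMSO 1031.7, 1388.8 and 974.4. DMSO arrays at 24 and 48 hr were thus higher than those at 7 hr, and the groups overlapped at 48 hr. The log2 fold change was 0.37 at 24 hr and 0.36 at 48 hr and was not called (adjusted p = 0.137 and 0.176, and 0.0557 and 0.0704 with the replicate block). A second probe set of Pex16, near the presence level at 11.5 to 66.4, was not called at any time in either line.

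Pex5 is the receptor for the common C-terminal import signal, and its probe sets 1426770_at and 1422063_a_at gave similar courses. On 1426770_at in 3T3-L1 adipocytes RSG gave 271.0, 347.4 and 353.0 at 7 hr and DMSO 177.2, 184.5 and 188.1. At 24 hr RSG gave 297.5, 365.7 and 398.9 and DMSO 150.3, 191.5 and 167.7. After 48 hr it gave 405.2, 421.4 and 433.5 and DMSO 104.1, 217.1 and 240.9. RSG arrays were above DMSO arrays throughout, and DMSO replicate 1 at 48 hr was the lowest. The log2 fold change was 0.81 at 7 hr (adjusted p = 0.0188, held in 1 of 6 fits without an array, highest 0.0926), 1.06 at 24 hr (0.000297) and 1.26 ± 0.19 SE at 48 hr (2.21e-05, 2.39-fold). On 1422063_a_at RSG gave 267.4, 343.0 and 285.0 at 24 hr and DMSO 137.7, 205.1 and 149.1. At 48 hr RSG gave 367.6, 359.2 and 332.9 and DMSO 63.5, 195.4 and 192.9. These groups also lay apart, with a log2 fold change of 0.88 at 24 hr (adjusted p = 0.0272, held in 2 of 6 fits, highest 0.108) and 1.40 ± 0.27 SE at 48 hr (0.000331).

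Pex5 was called at 4 and 7 hr and not later in C3H/10T1/2 adipocytes. At 4 hr RSG gave 384.9, 367.3 and 268.0 on 1426770_at and DMSO 175.9, 253.7 and 187.6. On 1422063_a_at the values at 4 hr were 282.4, 281.7 and 267.4 with RSG and 164.7, 180.1 and 167.2 with DMSO. All RSG arrays were above all DMSO arrays, with log2 fold changes of 0.73 (adjusted p = 0.0268, held in 2 of 6 fits, highest 0.189) and 0.70 (0.0205, held in 1 of 6, highest 0.105). At 7 hr the values were 329.2, 335.3 and 273.7 against 199.2, 215.7 and 205.4 on 1426770_at. They were 250.3, 270.8 and 246.9 against 134.0, 148.2 and 165.4 on 1422063_a_at. The groups lay apart again, with log2 fold changes of 0.59 (adjusted p = 0.047, held in 1 of 6 fits, highest 0.175) and 0.78 (0.003). At 48 hr the groups overlapped on both probe sets, and the log2 fold changes were 0.34 and 0.23. The other receptor, Pex7, which binds the N-terminal import signal, gave log2 fold changes of 0.13 and 0.08 at 24 hr and at 48 hr in the 3T3-L1 and of 0.31 and 0.14 in the C3H/10T1/2 line, none of them called.

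Pex14 and Pex13 form the docking site of the import receptors. Pex14 in 3T3-L1 adipocytes gave 688.7, 602.3 and 611.8 with RSG at 7 hr and 464.7, 354.1 and 398.6 with DMSO. At 24 hr it gave 807.1, 635.0 and 675.5 with RSG and 379.8, 356.8 and 369.8 with DMSO. The groups did not overlap, and the log2 fold change was 0.65 at 7 hr (adjusted p = 0.00423, and 0.0612 without DMSO replicate 2), 0.93 at 24 hr (8.21e-06, 1.90-fold) and 0.58 at 48 hr (0.00213). Pex14 in C3H/10T1/2 adipocytes gave 659.5, 571.9 and 590.6 with RSG at 7 hr and 350.8, 434.7 and 380.3 with DMSO. RSG was above DMSO on all arrays, by 0.65 on the log2 scale (adjusted p = 0.00476). The change was 0.29 at 24 hr, which was not called, and 0.46 at 48 hr (0.0412, held in 1 of 6 fits, highest 0.18).

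Pex13 in 3T3-L1 adipocytes gave 1541.9, 1517.3 and 1562.9 with RSG at 4 hr and 1242.7, 1112.1 and 1023.6 with DMSO. Its log2 fold change was 0.46 ± 0.11 SE at 4 hr (adjusted p = 0.0451, held in 1 of 6 fits, highest 0.283), 0.50 at 24 hr (0.00248) and 0.58 at 48 hr (0.000407). Pex13 in C3H/10T1/2 adipocytes gave 1357.4, 1485.1 and 1456.7 with RSG at 7 hr and 998.1, 1005.5 and 975.1 with DMSO. No array of one group reached into the other in either line, and in C3H/10T1/2 the log2 fold change was 0.53 at 7 hr (adjusted p = 0.000771) and 0.44 at 24 hr (0.00305). These values are of the brighter of its 2 probe sets. The dim one, 1422472_at, at 13.8 to 44 in the 3T3-L1 and 24.8 to 51.9 in the C3H/10T1/2 line, was not called.

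Pex3 and Pex19 act with Pex16 in the membrane, Pex3 as the anchor at which Pex19, the chaperone of membrane proteins, delivers its cargo. Pex3 in C3H/10T1/2 adipocytes gave 300.0, 292.5 and 288.7 with RSG at 7 hr on 1417442_a_at and 212.3, 203.5 and 221.5 with DMSO. On 1454044_a_at it gave 320.5, 327.3 and 280.1 with RSG and 201.6, 217.1 and 203.8 with DMSO. In both cases the groups lay apart, and Pex3 rose by 0.47 and 0.57 on the log2 scale (adjusted p = 0.00693 and 0.00642). On 1417442_a_at the change was 0.40 at 24 hr (0.0116, held in 4 of 6 fits, lost without RSG replicate 1 or DMSO replicate 3, highest 0.0675) and 0.35 at 48 hr (0.0345, held in 2 of 6). In 3T3-L1 adipocytes 1454044_a_at gave 545.1, 417.1 and 449.4 with RSG at 7 hr and 349.9, 301.5 and 290.5 with DMSO. The groups did not overlap, but this call (log2 0.58, adjusted p = 0.0478) was lost without any 1 of the 6 arrays (highest 0.283). At 48 hr 1417442_a_at was higher by 0.56 (0.00788, and 0.0559 without RSG replicate 1). The groups of 1454044_a_at overlapped at 48 hr in both lines.

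Pex19 in 3T3-L1 adipocytes gave 708.7, 553.3 and 725.3 with RSG at 48 hr on 1416425_at and 233.0, 385.4 and 364.9 with DMSO. On 1448332_at it gave 829.5, 678.1 and 596.5 with RSG and 257.1, 447.4 and 352.8 with DMSO. RSG exceeded DMSO on every array, and Pex19 rose by 1.04 (adjusted p = 3.52e-05) and 1.02 (0.000121) on the log2 scale. At 24 hr it rose by 0.73 (0.00275) and 0.87 (0.000989). The C3H/10T1/2 arrays of 1416425_at gave 734.6, 732.1 and 814.3 with RSG at 48 hr and 513.4, 561.7 and 480.0 with DMSO. The groups lay apart, with a log2 fold change of 0.55 (adjusted p = 0.0165, held in 3 of 6 fits, highest 0.0774). With the replicate block Pex19 was called on both probe sets at 7 and 24 hr too (adjusted p = 0.0336 and 0.00304 at 7 hr, 0.0468 and 0.0113 at 24 hr).

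**Figure D2:**
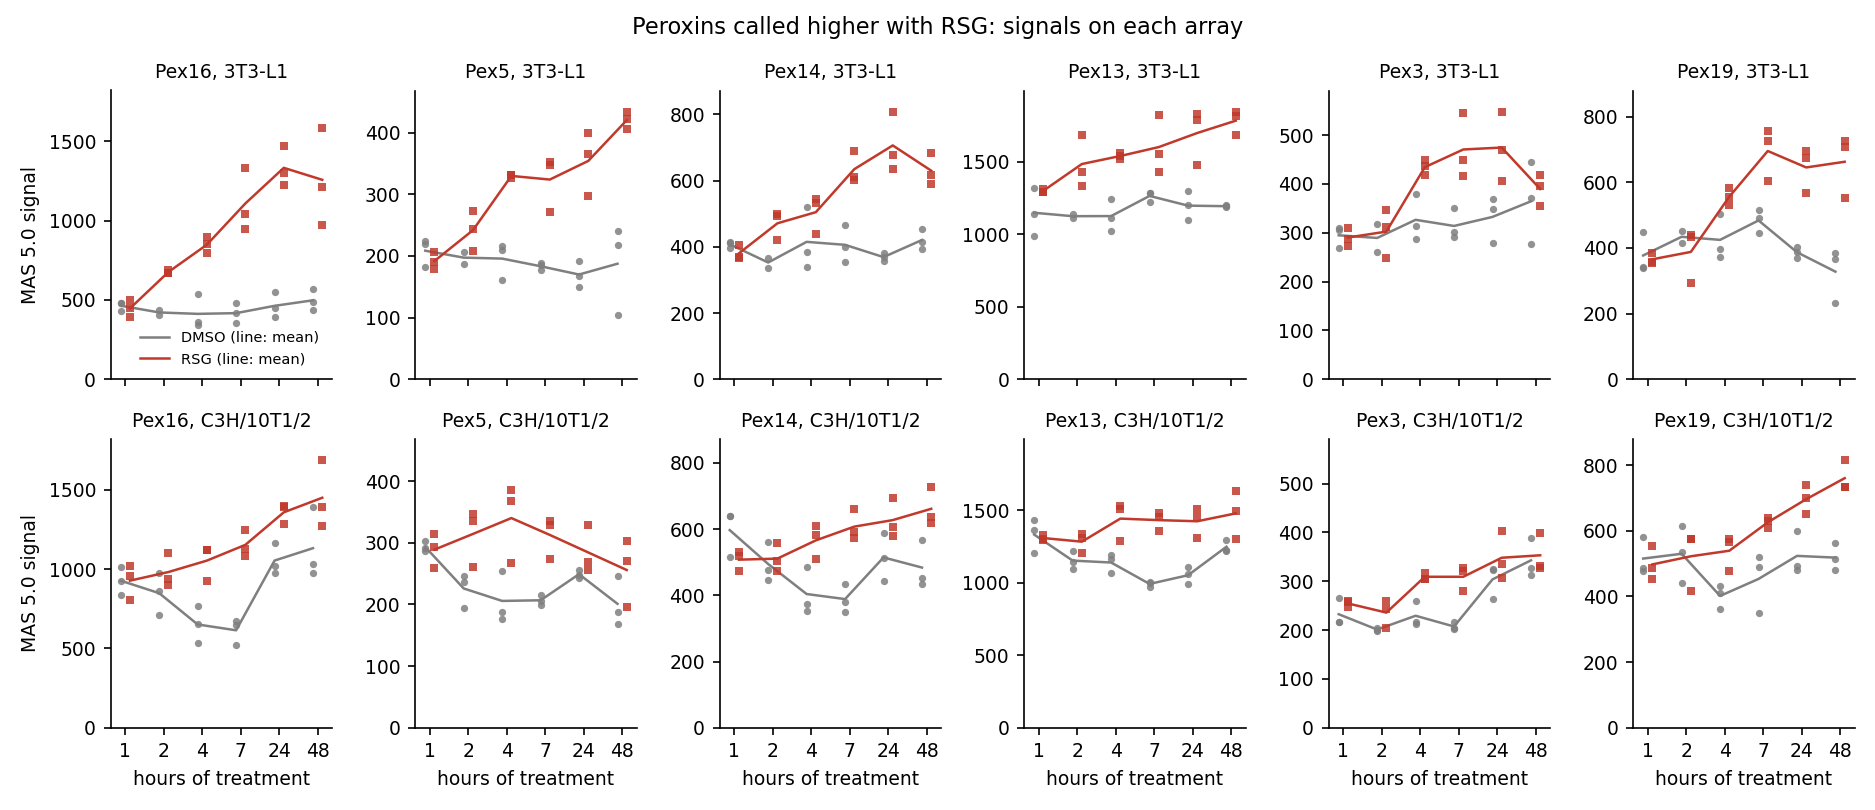
MAS 5.0 signal (y, linear from 0) of 6 peroxins (for each, the probe set with the highest mean signal) against hours of treatment (x, 6 times evenly spaced), with 3T3-L1 adipocytes above and C3H/10T1/2 below. Circles are DMSO arrays, squares RSG arrays, and lines join group means. In 3T3-L1 the RSG arrays of Pex16 lie between 975.0 and 1581.2 at 24 and 48 hr, clear of DMSO, while in C3H/10T1/2 the DMSO arrays dip to 519.6 at 7 hr and reach 1388.8 at 48 hr.

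The remaining peroxins were not called for RSG in either line without the replicate block. Pex2, of the complex that adds ubiquitin to the receptors, had log2 fold changes of -0.06 and 0.24 at 24 hr and at 48 hr in the 3T3-L1 and of -0.01 and -0.00 in the C3H/10T1/2 line. Pex6, of the motor that pulls receptors out of the membrane, had 5 probe sets, and none of those tested was called. With the replicate block 1 of them, 1451226_at, was called at 48 hr in C3H/10T1/2 (log2 0.37, adjusted p = 0.0288). Pex11a, which elongates peroxisomes before they divide and is itself induced by PPARα ligands in liver, gave 0.35 and -0.18 on 1449442_at in the 3T3-L1 and 0.24 and 0.24 in the C3H/10T1/2 line. Its value at 24 hr in 3T3-L1 was called only with the replicate block (adjusted p = 0.0289).

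Of the enzymes, Acaa1b changed most. It encodes a peroxisomal thiolase, the last enzyme of the β-oxidation cycle. In 3T3-L1 adipocytes DMSO arrays gave 49.3, 61.8 and 57.4 at 1 hr and 37.3, 43.2 and 36.3 at 48 hr. RSG gave 144.4, 128.6 and 119.7 at 7 hr, when DMSO gave 50.5, 45.5 and 40. At 24 hr RSG gave 462.3, 471.6 and 493.0 and DMSO 45.8, 35.4 and 45.3. From 7 hr on, all RSG arrays thus lay far above all DMSO arrays. The RSG arrays reached 1276.0, 1001.6 and 1037.7 at 48 hr. The fold was 2.89 at 7 hr (log2 1.53 ± 0.16 SE, adjusted p = 6.52e-07), 11.4 at 24 hr (log2 3.51, 9.14e-16) and 28.3 at 48 hr (log2 4.82, 8.6e-20), and these calls held without each array in turn.

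In C3H/10T1/2 adipocytes Acaa1b began high, fell in vehicle and was higher with RSG from 7 hr on. DMSO arrays gave 4258.0, 4742.6 and 4633.8 at 1 hr, 2887.2, 3214.0 and 3001.4 at 7 hr, and 1103.5, 1389.6 and 1508.4 at 48 hr. The fall from 1 to 48 hr in DMSO was called (log2 -1.78 ± 0.12 SE, adjusted p = 1.66e-11). RSG arrays gave 4568.4, 4095.5 and 4316.7 at 7 hr, 4251.5, 4024.1 and 4303.7 at 24 hr, and 4596.1, 5116.1 and 4719.9 at 48 hr. The RSG arrays at 48 hr thus overlapped the DMSO arrays of 1 hr, and lay wholly above the DMSO arrays of 24 hr, at 1267.7, 1634.1 and 1656.6, and of 48 hr. The log2 fold change of RSG against DMSO was 0.51 ± 0.12 SE at 7 hr (adjusted p = 0.016, held in 3 of 6 fits, highest 0.0876), 1.47 at 24 hr (1.41e-09, 2.78-fold) and 1.86 at 48 hr (7.33e-12, 3.63-fold). In 3T3-L1 adipocytes the change of Acaa1b in DMSO from 1 to 48 hr was -0.53, which was not called (adjusted p = 0.0922).

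The paralog Acaa1a was read on 2 probe sets that can share sequence with other transcripts, and neither was called for RSG. On 1456737_x_at the log2 fold change at 24 and 48 hr was 0.02 and 0.35 in the 3T3-L1 and 0.36 and 0.46 in the C3H/10T1/2 line. A further 2 probe sets annotated to both paralogs were not used.

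Ehhadh encodes the bifunctional enzyme that carries out the hydratase and dehydrogenase steps of β-oxidation, and was the first member to be called. In C3H/10T1/2 adipocytes RSG gave 342.8, 313.7 and 226.9 at 2 hr and DMSO 104.3, 139.3 and 94.7. At 4 hr RSG gave 204.6, 315.5 and 208.9 and DMSO 82.9, 122.1 and 112.0. At 7 hr RSG gave 135.5, 173.9 and 101.7 and DMSO 46.6, 66.1 and 34.2. RSG arrays were above DMSO arrays at each time, and the signals of both groups were lower at 7 than at 2 hr. The fold was 2.61 at 2 hr (log2 1.38 ± 0.24 SE, adjusted p = 0.00173), 2.28 at 4 hr (0.00745, and up to 0.0945 without RSG replicate 2 or DMSO replicate 1) and 2.83 at 7 hr (0.000197). At 24 hr RSG gave 161.8, 157.5 and 107.7 and DMSO 57.2, 59.8 and 40.6. At 48 hr RSG gave 145.9, 142.1 and 136.2 and DMSO 57.9, 63.1 and 57.4. The groups stayed apart, at 2.70-fold (adjusted p = 0.000163) and 2.38-fold (0.000907). In 3T3-L1 adipocytes Ehhadh was under the presence level on all 35 arrays, at 0.3 to 13.0, so no change is given there.

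**Figure D3:**
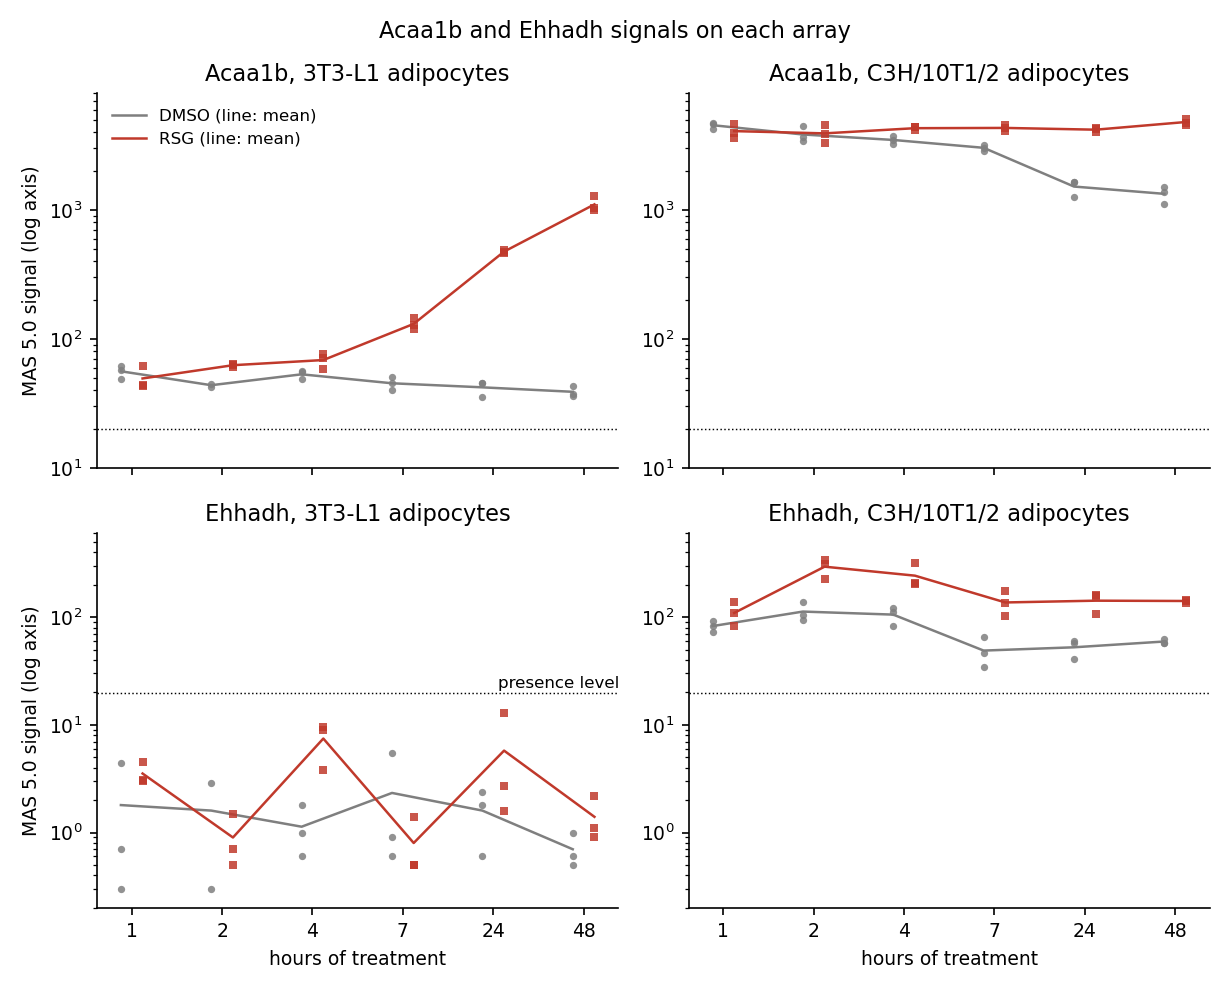
MAS 5.0 signal (y, log axis) of Acaa1b (above) and Ehhadh (below) against hours of treatment (x, 6 times evenly spaced) in 3T3-L1 (left) and C3H/10T1/2 adipocytes (right). Circles are DMSO arrays, squares RSG arrays, lines join group means and the dotted line is the presence level of 19.9. Acaa1b climbs to between 1001.6 and 1276.0 with RSG at 48 hr in 3T3-L1, is held near its starting level in C3H/10T1/2, and Ehhadh in 3T3-L1 stays under the dotted line.

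Hsd17b4, the other bifunctional enzyme, which also serves branched chains, rose on 1417369_at in both lines. In 3T3-L1 adipocytes this probe set gave 934.2, 772.4 and 684.6 with RSG at 48 hr and 390.5, 491.9 and 544.9 with DMSO. The C3H/10T1/2 line gave 1138.9, 1119.4 and 995.4 with RSG at 24 hr and 820.1, 785.3 and 604.1 with DMSO. All RSG arrays exceeded all DMSO arrays in both, and the log2 fold change was 0.75 at 48 hr in 3T3-L1 (adjusted p = 7.28e-05) and 0.57 at 24 hr in C3H/10T1/2 adipocytes (0.00292). It was 0.68 at 24 hr in 3T3-L1 (0.00034) and 0.42 at 48 hr in C3H/10T1/2 (0.033, held in 2 of 6 fits). The second probe set of Hsd17b4, 1455777_x_at, was called at 48 hr in 3T3-L1 (log2 0.52, adjusted p = 0.019, held in 2 of 6 fits) and at no other time. In C3H/10T1/2 its value of 0.52 at 24 hr was called only with the replicate block (0.161 without and 0.0288 with it). Scp2, whose gene encodes the thiolase for branched chains and a lipid transfer protein, rose on 1 of 4 probe sets in 3T3-L1, by 0.63 at 24 hr (0.000483) and 0.62 at 48 hr (0.000435). The values on that probe set, 1426219_at, were 0.05 and 0.07 in C3H/10T1/2 adipocytes and were not called.

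The auxiliary enzymes prepare fatty acids with double bonds or methyl branches for the cycle. Ech1, a dienoyl-CoA isomerase, gave 4361.0, 3250.8 and 3081.6 with RSG at 48 hr in 3T3-L1 adipocytes and 2380.2, 1735.5 and 2115.2 with DMSO. Ech1 in C3H/10T1/2 adipocytes gave 4432.3, 4492.3 and 4141.4 with RSG and 3113.6, 3142.4 and 2898.6 with DMSO. RSG was above DMSO on all arrays of both lines, and Ech1 rose by 0.77 (adjusted p = 0.000364) and 0.51 (0.00301, 1.43-fold) on the log2 scale. Eci2, an enoyl-CoA isomerase, rose at 48 hr by 0.52 in 3T3-L1 (0.00838, and 0.0586 without DMSO replicate 2) and by 0.49 in C3H/10T1/2 (0.0293, lost without any 1 of the 6 arrays, highest 0.0917). Decr2 and Pecr, both reductases, and Amacr, a racemase, were not called in either line. With the replicate block Amacr was called at 24 hr in C3H/10T1/2 adipocytes (log2 0.38, adjusted p = 0.0221).

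Products leave the peroxisome as free acids or carnitine esters, and coenzyme A is broken down. Nudt7, a hydrolase of coenzyme A, gave 523.0, 466.1 and 523.0 with RSG at 48 hr in 3T3-L1 adipocytes and 291.0, 238.9 and 223.3 with DMSO, on 1431302_a_at. Nudt7 in C3H/10T1/2 adipocytes gave 306.3, 279.0 and 192.0 with RSG at 24 hr and 182.0, 185.7 and 107.2 with DMSO. Each RSG group lay above its DMSO group, by 1.01 on the log2 scale (adjusted p = 8.67e-06) and by 0.73 (0.0418, held in 3 of 6 fits, highest 0.296). At 48 hr in C3H/10T1/2 the change was 0.65, called only with the replicate block (0.0904 without and 0.00832 with it). Its dim second probe set, 1427513_at, at 22.7 to 67.2 in the 3T3-L1 and 4.8 to 34.5 in the C3H/10T1/2 line, was not called. Acot8, a thioesterase, rose in 3T3-L1 at 24 hr by 0.90 (0.0283, held in 2 of 6 fits, highest 0.142). Crot, which makes carnitine esters of medium chains, was not called without the block, at -0.61 and -0.52 at 24 hr and at 48 hr in the 3T3-L1 and -0.14 and -0.06 in the C3H/10T1/2 line. With the block it was called in 3T3-L1 at 7, 24 and 48 hr (adjusted p = 0.0198, 0.0187 and 0.0414).

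Abcd2 was the only member that limma called lower with RSG in the fits of all arrays without a block. It is a membrane transporter of very long chain acyl-CoA and a paralog of the adrenoleukodystrophy protein. In 3T3-L1 adipocytes RSG gave 214.0, 243.7 and 168.9 at 24 hr and DMSO 413.9, 423.3 and 358.8. The C3H/10T1/2 arrays with RSG gave 175.0, 157.3 and 177.6 at 24 hr and DMSO 308.7, 316.2 and 252.3. At 48 hr in this line RSG gave 171.2, 157.4 and 185.8 and DMSO 313.2, 277.5 and 352.2. All RSG arrays here were below all DMSO arrays. Abcd2 fell by 0.95 ± 0.26 SE on the log2 scale at 24 hr in 3T3-L1 adipocytes (adjusted p = 0.0125, and up to 0.0748 without RSG replicate 3 or DMSO replicate 2). It fell by 0.78 ± 0.20 SE at 24 hr (0.015, held in 3 of 6 fits, highest 0.0693) and by 0.87 at 48 hr (0.00735, held in all 6) in C3H/10T1/2 adipocytes. At 48 hr in 3T3-L1 RSG gave 221.5, 160.2 and 144.1 and DMSO 215.0, 388.9 and 393.4. These groups overlapped through RSG and DMSO replicate 1, and the call (log2 -0.90, adjusted p = 0.0153) held in 2 of 6 fits (highest 0.0827). The difference was set against a rise in vehicle in C3H/10T1/2 adipocytes, where DMSO arrays gave 107.9, 81.4 and 69.8 at 1 hr, a log2 change of 1.88 ± 0.20 SE from 1 to 48 hr (7.41e-08, 3.68-fold). The RSG arrays of 48 hr in that line were above the DMSO arrays of 1 hr.

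Abcd3, the most abundant such transporter of peroxisomes in liver, rose in 3T3-L1 at 48 hr by 0.66 (adjusted p = 0.00261, and 0.051 without DMSO replicate 1). Its values in the C3H/10T1/2 line were 0.42 at 24 and 0.41 at 48 hr, called only with the replicate block (0.0151 and 0.021). Cat, the catalase that removes hydrogen peroxide, rose on 1 of 2 probe sets in 3T3-L1 at 48 hr by 0.43 (0.0454, held in 2 of 6 fits, highest 0.31), and its values in C3H/10T1/2 on that probe set were 0.10 and -0.02. Phyh, the hydroxylase that opens α-oxidation, gave 183.3, 184.2 and 192.0 with RSG at 48 hr in C3H/10T1/2 adipocytes and 135.3, 135.6 and 137.2 with DMSO. The groups lay apart, by 0.45 on the log2 scale (0.0274), but the call was lost without any 1 of the 6 arrays (highest 0.0891). Hacl1, the lyase of the same pathway, had values of 0.43 and 0.42 in the 3T3-L1 and of 0.54 and 0.13 in the C3H/10T1/2 line. It was called only with the block, at 24 hr in C3H/10T1/2 (0.0571 without and 0.00937 with it). In 3T3-L1 the block called it at 24 and 48 hr (0.0152 and 0.017). Gnpat, which starts ether lipid synthesis, was not called, at 0.38 and 0.34 in the 3T3-L1 and -0.05 and -0.10 in the C3H/10T1/2 line.

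**Figure D4:**
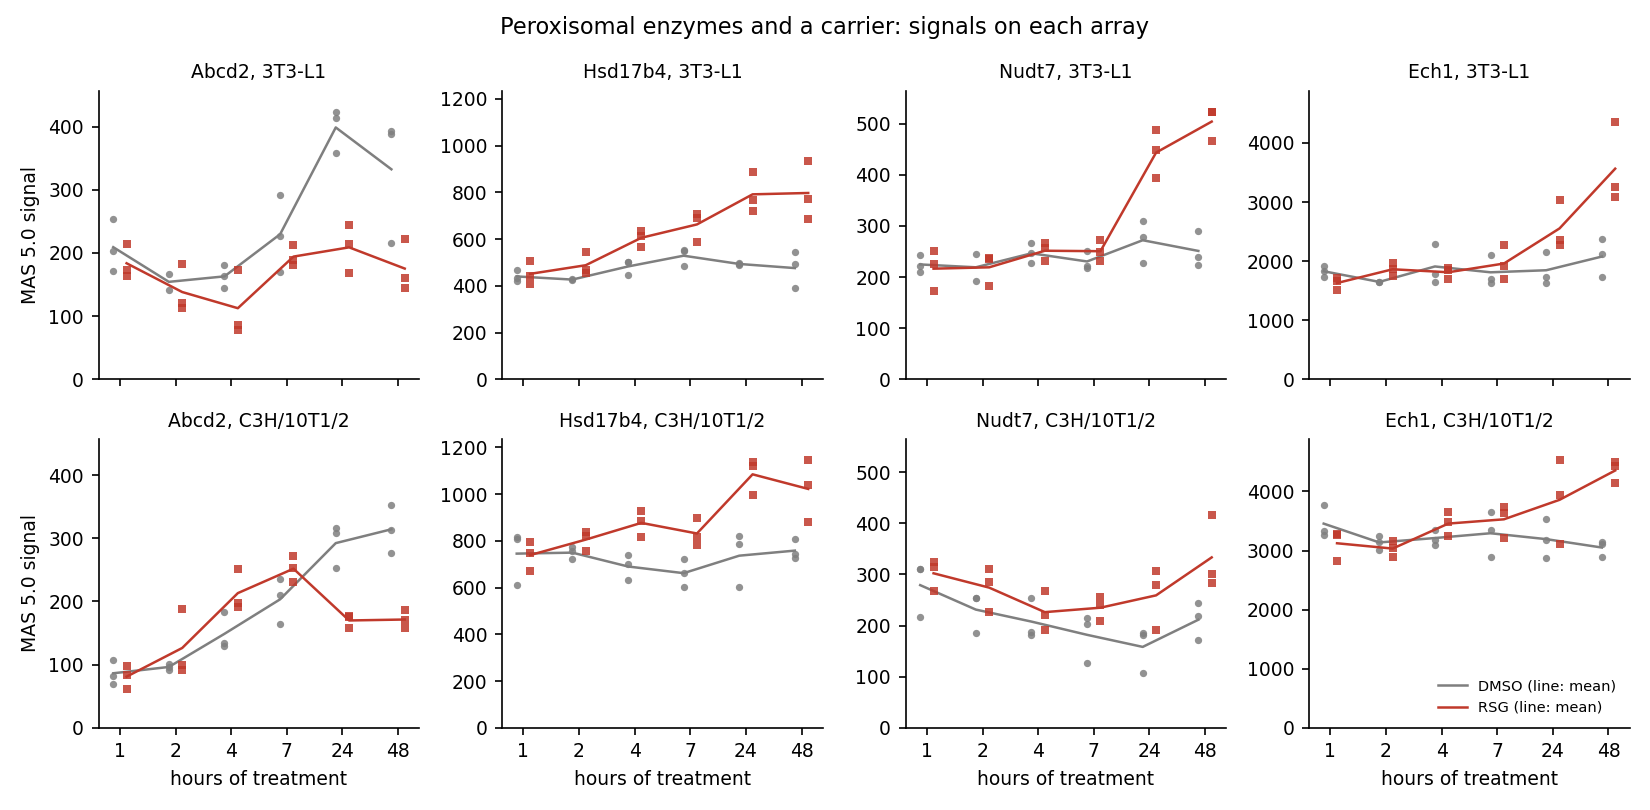
MAS 5.0 signal (y, linear from 0) of Abcd2, Hsd17b4, Nudt7 and Ech1 against hours of treatment (x, 6 times evenly spaced), with 3T3-L1 adipocytes above and C3H/10T1/2 below. Circles are DMSO arrays, squares RSG arrays, and lines join group means. Abcd2 lies lower with RSG, between 157.4 and 185.8 at 48 hr in C3H/10T1/2 against 277.5 to 352.2 with DMSO, and the 3 enzymes lie higher.

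Members changed between 1 and 48 hr in DMSO in C3H/10T1/2 adipocytes, where vehicle, time in the medium and the loss of the RSG used for differentiation cannot be told apart. From 1 to 48 hr in DMSO 6 members rose and 5 fell there, against 5.09% and 5.12% of all probe sets. Beside Abcd2, Hacl1 rose by 0.75, Gnpat by 0.52, Pecr by 0.46 and Pex3 by 0.39 and 0.56 on its 2 probe sets. Beside Acaa1b, Pex5 (1426770_at) fell by 0.56, Abcd3 by 0.44, Phyh by 0.42 and Pex6 (1424078_s_at) by 0.39. Acaa1b, Abcd2 and Pex3 on 1454044_a_at held without each array in turn, and the count lay between 5 and 7 without any 1 of the arrays of 1 and 48 hr. In 3T3-L1 adipocytes no member was called by limma, against 0.577% higher and 1.39% lower among all probe sets. At an unadjusted p under 0.05, 1 was higher and 2 were lower, and the test of the methods gave 1 and 1. Over all probe sets 1073 were higher and 1211 lower at that unadjusted p, and the test of the methods gave 1018 and 1157.

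In vehicle the lines held the members at different levels. Over the 6 DMSO groups of each line 12 of 46 member probe sets were higher in 3T3-L1 and 19 lower, against 55.1% and 22.4% of all 18274 tested. The median log2 difference, 3T3-L1 minus C3H/10T1/2, was -0.04 for members and 0.32 for all. After quantile normalization the median of all was 0.08, and 6566 of all 18274 probe sets were higher and 5509 lower. Members were then at 12 higher and 20 lower, and no called member changed its sign. The background shares thus depended on the scaling. Acaa1b stood furthest apart among members measured in both lines, far lower in 3T3-L1 (log2 difference -5.86, SE 0.05, adjusted p = 4.85e-61). Ehhadh, not above the presence level in 3T3-L1, was at least 3.62-fold higher in C3H/10T1/2 adipocytes. Pex16 differed by -0.93, Scp2 (1426219_at) by -0.90, Ech1 by -0.81 and Hsd17b4 (1417369_at) by -0.61. Phyh and Decr2 were higher in 3T3-L1 adipocytes, each by 1.13.

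The effect of RSG was compared between the lines in a joint fit of all 71 arrays. No difference was called at 1, 2 or 4 hr among members or among all 18274 probe sets tested (0%), and at an unadjusted p under 0.05 members numbered 0 at 1 hr, 1 at 2 hr and 2 at 4 hr. The test of the methods gave 0, 1 and 2. Over all probe sets the unadjusted p was under 0.05 for 311, 342 and 385 with a higher log2 fold change in 3T3-L1. It was so for 179, 187 and 238 with a lower one. At 7 hr Acaa1b alone differed, against 0.0164% of all, and at 24 and 48 hr Acaa1b and Pex16 differed, against 0.257% and 0.848%. For Acaa1b the log2 fold change in 3T3-L1 exceeded that in C3H/10T1/2 by 1.02 ± 0.19 SE at 7 hr (adjusted p = 0.0103), by 2.03 at 24 hr (4.47e-11) and by 2.96 at 48 hr (6.41e-18). The difference at 7 hr was lost without RSG replicate 2 of C3H/10T1/2 or DMSO replicate 3 of 3T3-L1 (highest adjusted p 0.0931). For Pex16 it was 1.17 ± 0.23 SE at 24 hr (0.00493, held without each array) and 0.95 at 48 hr (0.0181). At 48 hr it was lost without RSG replicate 3 or DMSO replicate 2 of C3H/10T1/2, or RSG or DMSO replicate 1 of 3T3-L1 (highest 0.119). Pex5 showed differences of the same direction at 48 hr, 1.17 and 0.91 on its 2 probe sets, which were not called (0.0557 and 0.0787).

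**Figure D5:**
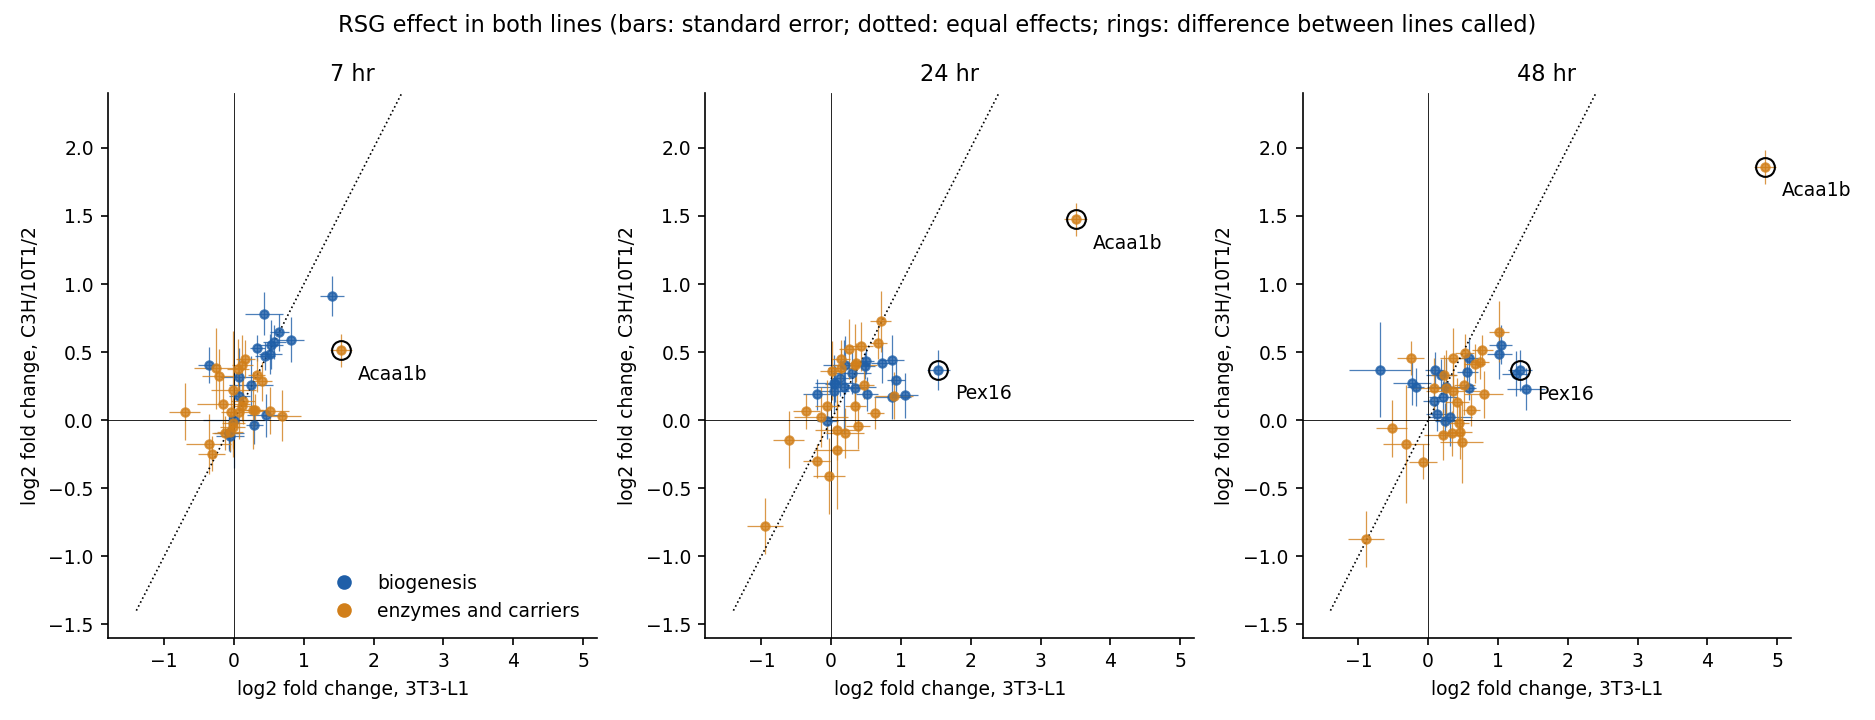
Log2 fold change of RSG against DMSO in 3T3-L1 (x) and in C3H/10T1/2 adipocytes (y) at 7, 24 and 48 hr for members tested in both lines, with bars of 1 SE and a dotted line where both effects are equal. Blue points are peroxins, orange points enzymes and carriers, and rings with names mark a called difference between the lines. Acaa1b lies far right of the dotted line at 24 hr (3.51 against 1.47) and 48 hr (4.82 against 1.86), and Pex16 lies right of it at 1.54 against 0.37 and 1.32 against 0.36.

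Other genes of peroxisomes formed a list of their own, without the members. In 3T3-L1 adipocytes 10 of 47 probe sets rose and 3 fell at 24 hr (median log2 fold change 0.13), and 12 rose and 2 fell at 48 hr (0.19). The C3H/10T1/2 line had 41 of these, of which 4 rose and 0 fell at 24 hr (0.14), and 2 rose and 1 fell at 48 hr (0.05). Of all tested probe sets in 3T3-L1, 4.79% rose and 6.97% fell at 24 hr, and 6.2% and 8.09% at 48 hr. The shares in C3H/10T1/2 were 3.65% and 4.07%, and 2.79% and 2.62%. Mitochondrial β-oxidation, a parallel pathway for shorter chains, had 19 of 25 probe sets higher at 24 hr in 3T3-L1 (median 0.60) and 21 at 48 hr (0.89). The C3H/10T1/2 line had 17 of them higher at 24 hr (0.59) and 18 at 48 hr (0.61). At 7 hr 1 of these 25 had risen in each line. Peroxin probe sets that had risen by then were 4 of 20 (4 genes) for 3T3-L1. They were 7 of 19 (5 genes) for C3H/10T1/2. The background share of rises at 7 hr was 1.22% for the former line and 1.65% for the latter. The differences between these lists were not tested.

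Markers of other cells moved with RSG at the late times. Of 18 probe sets for markers of preadipocytes and fibroblasts, 7 fell at 24 hr and 11 at 48 hr in 3T3-L1. The corresponding falls in C3H/10T1/2 numbered 7 and 6. Their summed signal in 3T3-L1 lay at 17873 to 23176 with RSG and 25382 to 30352 with DMSO at 24 hr, and at 20552 to 22442 and 29960 to 30849 at 48 hr. The sum in C3H/10T1/2 adipocytes lay at 17266 to 18480 and 22990 to 26862 at 24 hr, and at 16423 to 17861 and 21802 to 22464 at 48 hr. The part of this in the rises above was not tested. Summed adipocyte markers overlapped between RSG and DMSO at 24 and 48 hr in both lines, except at 24 hr in 3T3-L1, where RSG lay at 47666 to 59444 and DMSO at 37703 to 46998. Summed markers of brown adipocytes lay at 1405 to 1805 with RSG and 545 to 576 with DMSO at 48 hr in 3T3-L1. The sums in C3H/10T1/2 were 1347 to 1736 and 363 to 616, and 2 and 3 probe sets of this list, out of 10 and 8, rose. Of all tested probe sets 6.2% and 2.79% rose at 48 hr. In C3H/10T1/2 the brown sum also fell in vehicle. It stood at 2106.7, 2275.4 and 2683.5 in DMSO at 1 hr, above all RSG arrays of 48 hr. The part of this in the results above was not tested either. Summed markers of hepatocytes, which are rich in peroxisomes, never exceeded 167.3 on an array of 3T3-L1 or 98.2 on one of C3H/10T1/2 adipocytes.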

How the data were processed

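Adipocytes of 2 murine lines were profiled on Affymetrix mouse 430A arrays. The authors deposited 1 table of signal intensity per probe set on a linear scale, made with MAS 5.0, which corrects background and scales each array to a common mean. RNA was randomized before labeling. Of 22690 probe sets, 64 controls were set aside, and genes came from the platform annotation. The 2 probe sets shared by Acaa1a and Acaa1b were not used. Before logarithms, 0.1 stood in for the 132 values of 0.

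Log2 signals were fitted with limma 3.58.1 (lmFit, eBayes with an intensity trend, R 4.3.3), with 1 mean per group, separately in each line and over all 71 arrays for differences between lines. A probe set was tested where a group mean reached 19.9, the presence level of the methods. Benjamini-Hochberg adjustment ran over every probe set tested in a comparison, and a call needs an adjusted p under 0.05. The script was tested on simulated data. Promoters were searched with Python 3.11.15.

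The deviations of same-numbered replicates correlated above 0.1 in 18 of 18 group pairs of C3H/10T1/2 (0.132 to 0.307), which were taken as paired. In 3T3-L1 14 of 17 pairs did, and these were not taken as paired, although all 17 correlations were positive (0.019 to 0.261). The labels do not say that a number marks a shared batch, and the main fits of both lines had no block. Alternatives were no trend, a floor at the presence level, no filter, quantile normalization, the methods' test on single probe sets (p under 0.05 and 1.2-fold) with and without adjustment, a replicate block, a fit of only the groups compared, and each array left out.

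The members and gene lists were chosen with earlier results of these data known. By rule, values per array were printed for members called by 7 hr, for the 4 largest rises and 2 largest falls of 24 and 48 hr in each line, and for members with a called difference between lines; values of other members beside them were added by choice. The number of arrays limits the precision.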

Additional observations from a re-analysis of the deposited data

Results flagged for a closer look

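The response to RSG differed between the lines, by a test of the difference itself, for Acaa1b and Pex16. For Acaa1b the log2 fold change in 3T3-L1 adipocytes minus that in C3H/10T1/2 adipocytes was 1.02 at 7 hr, 2.03 at 24 hr and 2.96 at 48 hr. For Pex16 it was 1.17 at 24 hr and 0.95 at 48 hr. For both genes the level in DMSO was lower in 3T3-L1 than in C3H/10T1/2 adipocytes, by log2 differences of -5.86 and -0.93, and the part of these levels in the difference was not tested. Groups held at most 3 arrays, so no single array was tested as an outlier.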

How the results depend on the processing

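Of 120 called results for single probe sets, 64 stayed called under every planned setting, 77 without each array in turn, and none reversed. A fit of only the groups compared lost 44, no trend 10, the methods' test after adjustment 9, no filter, quantile normalization and the replicate block 6 each, the methods' test 4 and the floor 0. For 3T3-L1, the 2 calls of 1 to 4 hr became 1 with no trend, 23 with the methods' test and 1 with only the groups compared. The 5 rises at 7 hr became 14 with the methods' test and 3 with only the groups compared. Over all probe sets the 220 rises at 7 hr became 911 and 125. The 1 fall became 2 with the methods' test and 2 with the replicate block at both 24 and 48 hr, and 0 at 48 hr with only the groups compared. The second was Crot, called with the block at 7, 24 and 48 hr (log2 -0.71, -0.61 and -0.52, adjusted p = 0.0198, 0.0187 and 0.0414). The DMSO course, with 0 calls, had 2 by the methods' test, 1 after its adjustment and 1 with the block. Replicate numbers were not taken as paired there, and the block gave 7, 18 and 19 rises at 7, 24 and 48 hr against 5, 15 and 17. Rises among all probe sets of the line went from 220, 863 and 1117 to 366, 1111 and 1409 with it. For C3H/10T1/2, the methods' test gave 17 calls at 1 to 4 hr, then 14, 18 and 16 rises, against 5, 9, 7 and 9, and 2 falls at 24 and at 48 hr, the second being Pecr (log2 -0.30 and -0.31). Only the groups compared gave 1, 3, 2 and 3, and 3 of 11 calls in the DMSO course. The block gave 13 rises at 7, 24 and 48 hr against 9, 7 and 9. Among all probe sets it gave 489, 864 and 736 rises against 266, 589 and 450, and the methods' test gave 964, 1191 and 1159. For the difference between lines at 7 hr, 1 call became 2 with the floor, 5 with the methods' test and 0 with only the groups compared. At 24 hr 2 became 7 with the methods' test and 4 with the block. At 48 hr 2 became 4 with the floor, 5 with quantile normalization, 10 with the methods' test, 6 with the block and 1 with only the groups compared. Leaving out each array gave 1 to 2, 2 to 4, 11 to 14 and 15 to 17 higher calls in 3T3-L1, and 1 to 5, 7 to 9, 4 to 8 and 3 to 7 in C3H/10T1/2. Falls numbered 0 to 2 at 24 and at 48 hr in 3T3-L1, and 0 to 1 at 24 and 1 to 1 at 48 hr in C3H/10T1/2. The DMSO course gave 0 to 0 and 5 to 7 calls, the differences between lines 0 to 1, 2 to 3 and 1 to 4, and the DMSO levels 12 to 14 higher and 18 to 19 lower. Fits of only the groups compared held fewer arrays, and otherwise the cause was not tested.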
